A study of Mus musculus with 22 samples.

Results

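MHC class II molecules display peptides from endocytosed material to CD4+ T cells. An alpha and a beta chain pair in the endoplasmic reticulum around the invariant chain, which blocks the groove until endosomal proteases cut it away and the chaperone H2-DM swaps the remaining fragment for peptide. H2-O restrains H2-DM, and the coactivator Ciita switches the whole gene set on through an enhanceosome of RFX, NF-Y and CREB factors bound at X and Y boxes upstream of the genes. In lung, dendritic cells, B cells and macrophages carry most of these transcripts, and type II alveolar cells carry some.

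The 8 genes described here were taken by name: the chain genes H2-Aa, H2-Ab1 and H2-Eb1, the invariant chain gene Cd74, the chaperone genes H2-DMa and H2-DMb1, the gene of the chaperone's inhibitor H2-Oa, and Ciita. They are 8 of 20018 genes named on the array. Each was expressed, meaning that in 1 group or more at least 80% of the arrays gave a lung signal above that of the negative control spots. The array held 2 probes for H2-Ab1 and 1 probe for each of the others.

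Lungs came from female C57BL/6 mice that were 8 weeks old when the experiment began. Mice received 18, 54 or 162 µg Mitsui7, a long multiwalled carbon nanotube, in 1 intratracheal instillation, and right lung was collected 24 h later. Every mouse, control or treated, received the same vehicle of saline with cell-free lavage fluid from untreated mice. Arrays of 5 control mice and of 6, 5 and 6 mice at the 3 rising doses were analysed, 1 mouse per array, spread over 7 slides. Values below are log2 ratios of lung RNA to a common reference RNA from 11 mouse cell lines, so a ratio of 1 means that the lung signal was 2 times the reference signal. Because each probe has its own affinity and its own reference level, ratios were compared between mice and never between genes.

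Lung epithelial and endothelial markers were present in every group: all 8 genes of that list were expressed, their mean log2 ratio lay between 4.27 and 5.60 in all 22 lungs, and none was called at any dose. Control arrays had between 70.5% and 77.7% of probes above background, and arrays of the rising doses had between 56.8% and 77.9%, between 58.1% and 78.9%, and between 52.1% and 83.5%. Some treated arrays were therefore dimmer than any control array.

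Promoters are shown because class II genes are known for the X and Y boxes that they share upstream of their starts. RefSeq promoter sequence (GRCm38.p6) was searched for 5 of the 8 genes, from 250 bases before to 50 bases after each start. The promoters of H2-Ab1, Cd74 and Ciita were not searched, so whether they hold these boxes was not tested. The motifs searched were AGCAAC, a short sequence of the X box, and ATTGG, the core of the Y box, on both strands, and the 2 motifs cannot overlap on the same strand but can share 1 base on opposite strands. Of 32851 promoters of this length, 14.8% held AGCAAC and 37.4% held ATTGG on either strand, and 0.24% held AGCAAC followed on the same strand by ATTGG with 25 to 40 bases between their first letters. That spacing was chosen with these sequences in view. The stretches below run from 55 bases before ATTGG to 10 bases after it, 5′ to 3′ on the gene's strand, with both motifs in capitals.
H2-Eb1: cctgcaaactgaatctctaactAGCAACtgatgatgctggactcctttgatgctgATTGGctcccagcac
H2-Oa: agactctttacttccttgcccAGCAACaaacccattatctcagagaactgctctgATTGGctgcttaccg
H2-Aa: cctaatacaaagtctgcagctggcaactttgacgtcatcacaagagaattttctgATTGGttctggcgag
H2-DMb1: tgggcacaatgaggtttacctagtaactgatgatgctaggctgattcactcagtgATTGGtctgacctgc
H2-Ob: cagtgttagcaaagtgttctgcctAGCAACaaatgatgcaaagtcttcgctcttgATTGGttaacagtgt

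In that order these are chr17:34305753-34305822 on the plus strand, chr17:34092281-34092350 on the plus strand, chr17:34287857-34287926 on the minus strand, chr17:34153075-34153144 on the plus strand and chr17:34238793-34238862 on the plus strand. All lie upstream of the annotated start, outside the transcript, with ATTGG beginning 59, 43, 48, 61 and 57 bases before it. H2-Ob, the beta chain partner of H2-Oa, is not one of the 8 genes and is shown for comparison. AGCAAC began 33 bases before ATTGG in H2-Eb1, 34 bases in H2-Oa and 31 bases in H2-Ob. The H2-Aa and H2-DMb1 promoters held ATTGG without AGCAAC. H2-DMa has 2 annotated starts in this table, 1 with neither motif and 1 with ATTGG alone.

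At 18 µg no class II gene changed by the test used throughout (limma with slide as a fixed effect, Benjamini-Hochberg adjusted p of at most 0.05 over all probes and a change of at least 1.5-fold). Over all 20018 named genes, 1.18% were called lower and 0.52% higher at this dose. Shares of all genes called keep this base below, although only the 16436 expressed genes could be called. Of the 8 genes, each at its brightest probe, 6 had a positive and 2 a negative log2 fold change against control. None of these had an unadjusted p below 0.05. The median of the 8 was 0.19, beside a median of -0.02 over all expressed genes. The positive sign of the median depended on the normalization: it was -0.19 with arrays centred on their median and -0.35 without normalization, where the median of all expressed genes shifted to -0.26 and -0.42. Relative to those shifts the class II median was 0.07 higher under both.

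At 54 µg no class II gene passed the test. The log2 fold change was negative for 7 of the 8 genes, with a median of -0.53 against -0.01 over all expressed genes, and 5 of the 8 had an unadjusted p below 0.05. Few genes of any kind were called at this dose, 0.11% lower and 0.18% higher.

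At 162 µg the median was -0.37 against -0.01 over all expressed genes, and 7 of the 8 values were again negative. The median stayed negative under each scaling tried, from -0.61 to -0.32 at 54 µg and from -0.62 to -0.34 at 162 µg. No gene passed the test and 2 had an unadjusted p below 0.05, while 2.89% of all genes were called lower and 2.72% higher. The comparison of 162 µg with 18 µg gave 2 calls, Cd74 and H2-DMa, both lower at 162 µg, where 1.35% of all genes were called lower and 2.73% higher. In it 7 of the 8 genes were lower, H2-Oa stood at 0.00, the median was -0.58 and 6 of the 8 had an unadjusted p below 0.05. Over the dose ranks (0 for control to 3 for 162 µg), the 1.5-fold limit applied to the change over 3 ranks. The slope was negative for 8 of 8 genes, although that of Ciita was only -0.0008 (SE 0.04). No slope of the 8 was called, and 6 had an unadjusted p below 0.05. Of all genes, 1.98% were called with a falling and 2.52% with a rising slope. The comparisons with control share the same 5 control lungs, so their directions are not separate pieces of evidence. In whole lung, fewer cells of a type and less RNA per cell cannot be told apart.

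**Figure D1:**
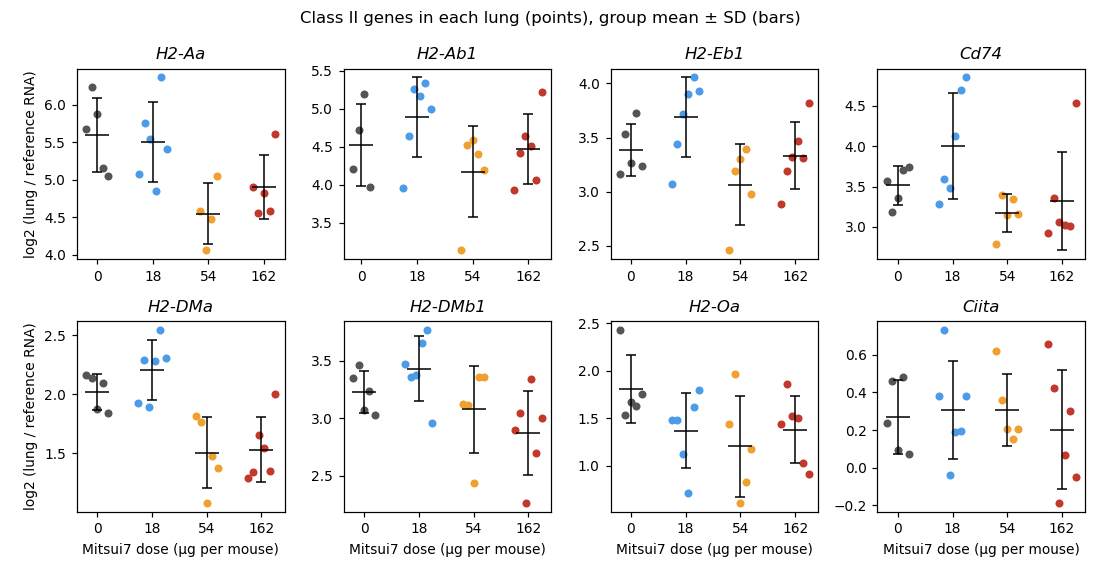
Log2 ratio of lung to reference RNA (vertical axis) of each class II gene in each mouse (points) by Mitsui7 dose in µg per mouse (horizontal axis), with group mean and SD as bars. The H2-DMa points at 54 µg all lie below the control points, and for Cd74 at 162 µg replicate 6 sits alone at 4.53.

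**Figure D2:**
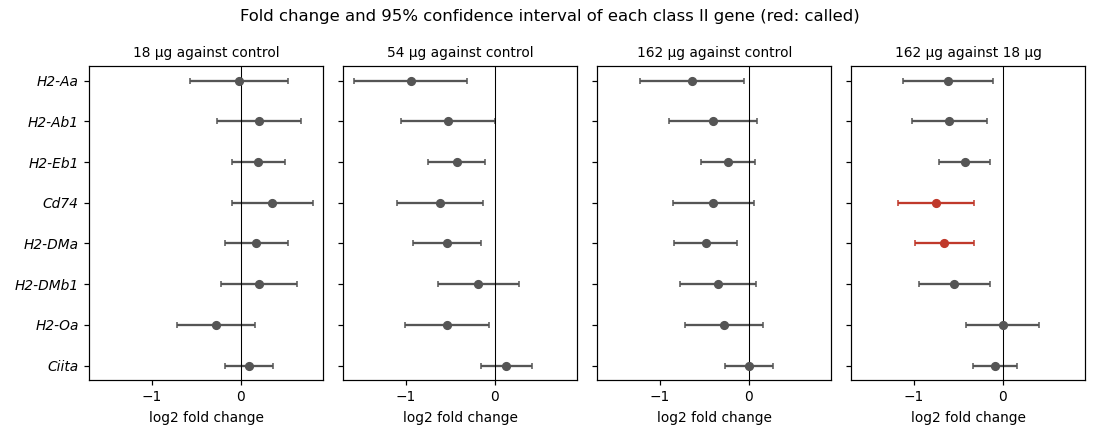
Log2 fold change from limma (horizontal axis) with its 95% confidence interval for each class II gene, 1 panel per comparison, called values in red. Cd74 and H2-DMa in the comparison of 162 µg with 18 µg are the red points.

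The chaperone gene H2-DMa (NM_010386) had the lowest adjusted p of the 8 genes at 162 µg, against control and against 18 µg. Its log2 ratios in the 5 controls were 2.16, 2.14, 1.88, 2.09 and 1.84. At 18 µg they were 1.93, 2.29, 1.89, 2.28, 2.55 and 2.31, and 4 of these 6 mice lay above every control. At 54 µg they were 1.82, 1.77, 1.08, 1.48 and 1.38, all below the lowest control. At 162 µg they were 1.29, 1.35, 1.66, 1.54, 1.35 and 2.01, and 5 of 6 mice lay below every control, replicate 6 being the exception. The fold change against control was 0.17 on the log2 scale at 18 µg (SE 0.17, adjusted p = 0.699), -0.54 at 54 µg (SE 0.18, adjusted p = 0.327) and -0.49 at 162 µg (SE 0.17, adjusted p = 0.106). Between 162 and 18 µg it was -0.66 (SE 0.16, adjusted p = 0.0232), a 1.58-fold fall, with 5 of 6 mice at 162 µg below all 6 at 18 µg. H2-DMa was also the gene nearest the threshold over the dose ranks, with a slope of -0.22 per rank (SE 0.06, adjusted p = 0.0561).

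Its partner H2-DMb1 (NM_010387), the beta chain of the chaperone, overlapped more. Control ratios were 3.35, 3.46, 3.07, 3.24 and 3.02, and those at 18 µg were 3.47, 3.36, 3.38, 3.65, 3.77 and 2.96. At 54 µg the ratios were 3.13, 3.11, 2.44, 3.36 and 3.36, and at 162 µg they were 2.89, 3.04, 2.26, 3.34, 2.70 and 3.01. At 162 µg 4 of 6 mice lay below every control. Its fold change was -0.34 against control (SE 0.20, adjusted p = 0.425) and -0.55 against 18 µg (SE 0.19, adjusted p = 0.131), with no call.

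Cd74 (NM_001042605) is the invariant chain that also serves as a surface receptor for macrophage migration inhibitory factor. Its SD was 0.24 in controls and at 54 µg, 0.66 at 18 µg and 0.61 at 162 µg, where replicate 6 stood apart. Control ratios were 3.57, 3.18, 3.36, 3.71 and 3.75. At 18 µg they were 3.29, 3.60, 3.49, 4.12, 4.69 and 4.85, so 3 mice exceeded every control and the other 3 lay among them. At 54 µg they were 2.79, 3.40, 3.15, 3.35 and 3.17, and at 162 µg they were 2.93, 3.36, 3.07, 3.03, 3.02 and 4.53. At 162 µg 4 of 6 mice lay below every control, and replicate 6 lay above every control. The fold change was 0.35 at 18 µg (SE 0.22, adjusted p = 0.484), -0.62 at 54 µg (SE 0.23, adjusted p = 0.415) and -0.40 at 162 µg (SE 0.22, adjusted p = 0.362). Between 162 and 18 µg it was -0.75 (SE 0.20, adjusted p = 0.0436), a 1.69-fold fall.

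Both calls depended on the scaling and on which mice were included. With median centring Cd74 was -0.56 (adjusted p = 0.69) and H2-DMa -0.53 (adjusted p = 0.567), and without normalization they were -0.41 and -0.38 (adjusted p = 0.928 for both), so neither was called under either scaling. Cd74 was also not called with the Cy5 channel alone, with no slide term or with slide as a random block, and H2-DMa was not called in the deposited log2 table. Cd74 was lost in 13 of the 22 fits that each left out 1 mouse, with values from -0.92 to -0.62, and H2-DMa in 6 of 22, with values from -0.76 to -0.56. No call was left without any 1 of 18 µg replicates 2, 4 and 5 or 162 µg replicates 1, 2 and 5, and 3 calls were made without 162 µg replicate 6.

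The classical chain genes had negative fold changes at 54 and 162 µg, none of them called. At 162 µg these values varied with the setting: H2-Ab1 was -0.83 and H2-Eb1 -0.86, both called, with the Cy5 channel alone, and -0.06 and -0.05 with no slide term. H2-Ab1 (NM_207105), the beta chain of the I-A molecule, gave a control range of 3.98 to 5.19 at its brighter probe in 4 mice, control replicate 3 having no value. At 18 µg the ratios lay between 3.96 and 5.34, at 54 µg between 3.14 and 4.59, and at 162 µg between 3.93 and 5.22, so all groups overlapped. The fold change was 0.20 (SE 0.22, adjusted p = 0.743), -0.52 (SE 0.25, adjusted p = 0.597) and -0.40 (SE 0.23, adjusted p = 0.414) at the 3 rising doses, and -0.60 between 162 and 18 µg (SE 0.20, adjusted p = 0.114). The other H2-Ab1 probe, measured in all 5 controls, gave 0.47, -0.41 and -0.17 against control at the rising doses. At 18 µg its unadjusted limma p was 0.0312 (adjusted p = 0.265). Between 162 and 18 µg it gave -0.65 (SE 0.19, adjusted p = 0.0635). Both probes had the same sign in each of these comparisons and neither was called.

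H2-Eb1 (NM_010382), the I-E beta chain, followed H2-Ab1 closely across lungs (Pearson r = 0.94). No H2-Ea probe was named here, and C57BL/6 mice are known to lack I-E at the cell surface because of a defect in that alpha chain gene. The control ratios of H2-Eb1 were 3.16, 3.54, 3.26, 3.73 and 3.24. At 18 µg they were 3.07, 3.44, 3.72, 3.90, 4.06 and 3.93, with 3 mice above every control. At 54 µg they were 2.46, 3.19, 3.30, 3.39 and 2.98, and at 162 µg they were 2.88, 3.20, 3.32, 3.47, 3.32 and 3.82. The groups overlapped. The fold change was 0.20, -0.43 and -0.23 against control, and -0.43 between 162 and 18 µg (SE 0.13, adjusted p = 0.0867), none of them called.

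H2-Aa (NM_010378), the I-A alpha chain, had the lowest fold change of the 8 genes at 54 µg. Ratios were 5.67, 6.24, 5.87, 5.16 and 5.05 in controls and 5.07, 5.76, 5.54, 4.86, 6.37 and 5.42 at 18 µg. At 54 µg 4 mice gave 4.59, 4.06, 4.48 and 5.05, and at 162 µg 5 mice gave 4.91, 4.56, 4.82, 4.59 and 5.61. The values of replicate 2 at both of these doses were left out as outlier spots, and both arrays were on the same slide. In these groups 3 of 4 and 4 of 5 mice lay below every control. The fold change was -0.95 at 54 µg (SE 0.30, adjusted p = 0.306) and -0.64 at 162 µg (SE 0.28, adjusted p = 0.233), and -0.02 at 18 µg (SE 0.26, adjusted p = 0.985).

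H2-Oa (NM_008206), the alpha chain of the inhibitor of H2-DM, had a negative value at each dose, as H2-Aa did. Control ratios were 2.43, 1.53, 1.67, 1.63 and 1.75, replicate 1 standing apart. At 18 µg they were 1.48, 1.48, 1.12, 0.71, 1.62 and 1.79, at 54 µg they were 1.44, 1.97, 0.61, 0.83 and 1.17, and at 162 µg they were 1.44, 1.87, 1.52, 1.5, 1.03 and 0.91. Below every control lay 4 of 6, 4 of 5 and 5 of 6 mice in turn. The fold change was -0.28 at 18 µg (SE 0.21, adjusted p = 0.596), -0.54 at 54 µg (SE 0.22, adjusted p = 0.486) and -0.28 at 162 µg (SE 0.21, adjusted p = 0.574).

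Ciita (NM_007575), the coactivator itself, was near background: the scanner software placed it well above background on 4 of 5 control arrays and on 3 of 6, 2 of 5 and 3 of 6 arrays of the rising doses. Control ratios lay between 0.07 and 0.48, and those of the rising doses between -0.04 and 0.73, between 0.15 and 0.62, and between -0.19 and 0.66, so every group overlapped the controls. The fold change was 0.09 (SE 0.13), 0.13 (SE 0.14) and 0.00 (SE 0.13) against control, and its 95% confidence interval at 162 µg ran from -0.26 to 0.27. A change within that interval was not detectable at this signal.

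Slides held mixed groups, so the class II genes were also read within slides, without a test. Slide was already in the fit of these same arrays, so these differences are not separate evidence. On the 5 slides with both doses, the 162 µg lung minus the 18 µg lung was -0.67, -1.10, -0.42, -0.32 and -1.67 for Cd74, lower on 5 of 5. For H2-DMa it was -1.0, -0.74, -0.23, -0.30 and -1.20, lower on 5 of 5, and H2-Eb1 was also lower on 5 of 5, from -0.74 to -0.11. On the 4 slides with a control and a 162 µg lung, H2-DMa was lower on 4 of 4, by differences between -0.85 and -0.43. Cd74 was lower on 4 of 4, between -0.73 and -0.01, and H2-DMb1 on 4 of 4, between -0.98 and -0.03. H2-Aa was lower on 3 of 3 slides with values and H2-Ab1 on 2 of 3. H2-Eb1 and H2-Oa were lower on 3 of 4, and Ciita on 1 of 4. Between 162 and 18 µg, the genes other than Cd74, H2-DMa and H2-Eb1 were lower on 3 or 4 of 5 slides. The slide with the smallest Cd74 and H2-Eb1 differences held 162 µg replicate 6, the highest mouse of its group for H2-Aa, H2-Ab1, H2-Eb1, Cd74 and H2-DMa. That array had 53.5% of probes above background, and the part of its dimness in these values was not tested.

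**Figure D3:**
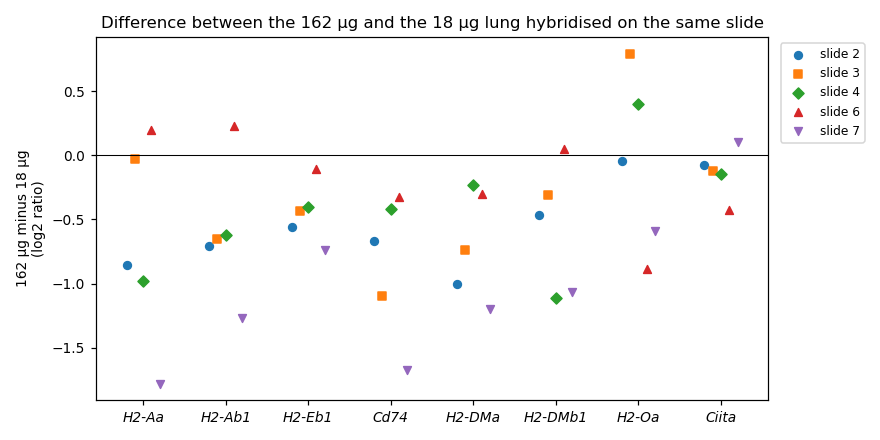
Difference in log2 ratio between the 162 µg and the 18 µg lung on the same slide (vertical axis) for each class II gene (horizontal axis), 1 symbol per slide. Cd74, H2-DMa and H2-Eb1 lie below 0 on all 5 slides, and H2-Oa lies on both sides.

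The 8 genes varied together in part. Over the 28 pairs, Pearson r across lungs had a median of 0.32 and ran from -0.38 to 0.94, and after slide and dose were taken out the median was 0.27. The highest pairs were H2-Ab1 with H2-Eb1 (0.94), H2-Eb1 with Cd74 (0.79) and H2-Aa with H2-DMa (0.75), while Ciita with H2-Ab1 was at -0.38. These lungs share slides and dose groups, and no test was made of these values.

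Of 14995 other expressed genes measured in all 22 lungs, Irf8 was most like the class II genes, whose mean standardized log2 ratio per lung served as the measure. Irf8 is a transcription factor of dendritic cell, B cell and macrophage development. Its Pearson r was 0.87 and its Spearman rho 0.87, r was 0.83 without the 2 lungs of most extreme Irf8, and 0.87 after slide and dose were taken out. Over all genes the median r was 0.0025, and 2.49% exceeded 0.5. Irf8 was picked for this value, so it carries no test.

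Next came Rex1bd (0.79), the T cell kinase gene Lck (0.76), Rac2 (0.76), a GTPase of blood cells, Ptprcap (0.75), a lymphocyte phosphatase partner, and Usp11 (0.75). The lowest were Slc36a4 (-0.78), Brix1 (-0.76) and Rps6kb1 (-0.75). Irf8 itself lay between 2.22 and 2.60 in controls, between 2.08 and 2.89 at 18 µg, between 1.97 and 2.46 at 54 µg, and between 1.72 and 2.20 at 162 µg, where all 6 mice were below every control. It was lower at 162 µg than at 18 µg (-0.63, SE 0.12, adjusted p = 0.00611) and was not called against control, where its change of -0.47 (adjusted p = 0.0386) fell short of 1.5-fold.

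**Figure D4:**
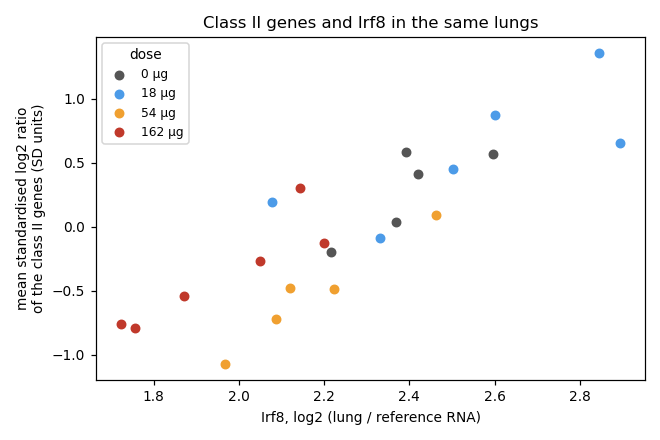
Mean standardized log2 ratio of the 8 class II genes in SD units (vertical axis) against the log2 ratio of Irf8 (horizontal axis), 1 point per lung, coloured by dose. The points rise together with r = 0.87, and the 162 µg lungs lie at Irf8 ratios of 1.72 to 2.20.

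Beside the 8 genes, H2-Ob, the beta chain of H2-O, fell at 162 µg. Its ratios ran from 1.69 to 3.01 in controls and 0.81 to 2.19 at 162 µg, with 4 of 6 mice below every control, and the fold change was -0.91 (SE 0.25, adjusted p = 0.0395). That call was lost in 13 of 22 fits that left out 1 mouse, with values from -1.04 to -0.79, and with median centring (-0.89, adjusted p = 0.0859). H2-Eb2 and H2-DMb2 were not called, so 1 of 3 expressed genes of that list was called at 162 µg and 0 of 3 at the other doses, although 3 of 3 values were negative at both 54 and 162 µg.

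Of 15 genes of the transcription factors and cofactors that act on class II promoters, 1 was called higher at 18 µg and 2 lower at 162 µg compared with 18 µg. Irf4, a partner of PU.1 in B and dendritic cells, rose at 18 µg by 0.95 (SE 0.21, adjusted p = 0.0335), all 6 mice lying above every control, and was lower at 162 µg than at 18 µg (-1.08, SE 0.19, adjusted p = 0.00414). The other was Irf8. None of these 3 calls was kept with median centring, where Irf4 was 0.55 at 18 µg and -0.95 between the doses and Irf8 was -0.50, or without normalization, where the values were 0.39, -0.81 and -0.36. None of the RFX, NF-Y and CREB genes was called in any dose group comparison, but some missed only the limit of 1.5-fold. Rfxank did so at 162 µg against control (-0.58, adjusted p = 0.00244) and against 18 µg (-0.42, adjusted p = 0.015). Nfya did so between 162 and 18 µg (-0.51, adjusted p = 0.0452). By the limit set for slopes, Rfxank had a called falling slope over the dose ranks (-0.20 per rank, SE 0.03, adjusted p = 0.000796). That slope was not called with median centring or without normalization. Both genes are named after their values were seen.

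Some endosomal proteases rose. They belong to a list of endosomal processing genes that also holds genes other than proteases. Of its 12 expressed genes, 11 had a positive fold change at 162 µg (median 0.22) and 2 were called higher. The list median was however -0.05 with median centring and -0.06 without normalization. Ctsh, an aminopeptidase that is also abundant in type II alveolar cells, rose by 1.05 (SE 0.16, adjusted p = 0.00086), from ratios of 5.90 to 6.10 in controls to 7.04 to 7.42 at 162 µg without overlap. Ctsl, a lysosomal endopeptidase, rose by 0.64 (SE 0.12, adjusted p = 0.00479). Lgmn, an asparagine endopeptidase, rose at 18 µg by 0.59 (SE 0.13, adjusted p = 0.0379), a value of 0.14 with median centring and -0.02 without normalization. The calls of Ctsh and Ctsl at 162 µg also ended with median centring (0.65 and 0.32) and without normalization (0.63 and 0.30).

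Of 7 expressed costimulation genes, Tnfsf9, the ligand of 4-1BB, rose by 1.08 at 18 µg (SE 0.24, adjusted p = 0.0394) and by 1.36 at 162 µg (SE 0.24, adjusted p = 0.00333). Pdcd1lg2, a PD-1 ligand, rose by 0.72 at 18 µg (SE 0.17, adjusted p = 0.0437). All 3 calls ended with median centring, where Tnfsf9 was 0.71 at 18 µg and 1.0 at 162 µg and Pdcd1lg2 was 0.59, and without normalization, where the values were 0.55, 0.99 and 0.42. Class I presentation genes had a median of 0.24 at 18 µg, with 17 of 17 values positive, 0 called and 4 at an unadjusted p below 0.05, a median that turned to -0.16 with median centring and -0.32 without normalization. Between 162 and 18 µg 2 of the 17 were called lower, the endoplasmic reticulum chaperones Calr (-1.24, SE 0.19, adjusted p = 0.00144) and Pdia3 (-0.98, SE 0.18, adjusted p = 0.00504). In the 16 expressed genes of the interferon gamma response, the guanylate-binding protein genes Gbp2 (-0.72, SE 0.13, adjusted p = 0.00421) and Gbp3 (-0.79, SE 0.14, adjusted p = 0.00317) fell at 162 µg, all 6 mice below every control for both, and the list median was -0.13. These calls of Calr, Pdia3, Gbp2 and Gbp3 were not kept under either scaling, with Gbp2 at -0.96 and Gbp3 at -1.03 with median centring (adjusted p = 0.0979 and 0.086).

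Markers of the cell types that carry class II were set beside these values. Most B cell genes had negative values at the 2 higher doses: of 13 expressed genes, 12 had a negative fold change at 54 µg (median -0.38, 0 called and 3 with an unadjusted p below 0.05) and 12 at 162 µg (median -0.46, 5 called lower). Their mean log2 ratio per lung lay between 0.89 and 1.47 in controls, between 0.90 and 1.44 at 18 µg, between 0.11 and 1.23 at 54 µg, and between -0.06 and 1.09 at 162 µg. The called genes at 162 µg included Ms4a1, which encodes CD20 (-0.89, adjusted p = 0.0126), the complement receptor Cr2 (-1.02, adjusted p = 0.00489), Fcrla (-0.86, adjusted p = 0.0387) and the adaptor Blnk (-0.73, adjusted p = 0.00848). Compared with 18 µg, 13 of 13 were lower at 162 µg (median -0.80) and 6 were called, including Cd79b and Cxcr5. The 5 calls against control were 3 without 162 µg replicate 1, 2 with median centring, 1 with the Cy5 channel alone and 0 without normalization, while the list median stayed negative under each scaling. The 6 calls against 18 µg were 0 with median centring and without normalization. Their part in the class II values was not tested.

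Dendritic cell markers were split in sign. Of 12 expressed genes, 6 were higher and 6 lower at 162 µg (median 0.07, and -0.17 with median centring) with 0 called and 5 at an unadjusted p below 0.05, and their mean per lung ran from 1.48 to 1.77 in controls and 1.30 to 2.02 at 162 µg. Compared with 18 µg, the integrin gene Itgax (-0.64, adjusted p = 0.0467) and Cd209a (-1.44, SE 0.30, adjusted p = 0.0109), which encodes a lectin of monocyte-derived dendritic cells, were called lower at 162 µg. In that comparison the list was split, 5 higher and 7 lower (median -0.05, and 0.05 with median centring). An unadjusted p below 0.05 was reached by 2 higher and 4 lower genes. The T cell list had 9 of 13 values negative at 162 µg (median -0.19) and 1 called, Lck (-0.83, adjusted p = 0.0047).

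In the 12 genes of monocytes and interstitial macrophages the median was -0.03 at 162 µg with 0 called and 4 at an unadjusted p below 0.05, and Adgre1 was lower than at 18 µg (-0.63, adjusted p = 0.0316). Alveolar macrophage genes had a median of 0.20 at 162 µg (0.02 with median centring), with 11 higher and 2 lower. Of these, 3 higher and 2 lower had an unadjusted p below 0.05, and the scavenger receptor Marco rose by 1.51 (SE 0.28, adjusted p = 0.00459). In the same list Chil3, the chitinase-like Ym1, rose by 1.73 at 18 µg (SE 0.41, adjusted p = 0.0457). At 18 µg that list was split, 7 higher and 6 lower (median 0.12, and -0.19 with median centring), and Chil3 was 1.20 with median centring, without a call. Type II alveolar genes had a median of 0.09 at 162 µg (-0.18 with median centring), with Napsa called higher (0.72, adjusted p = 0.0356). Neutrophil genes had a median of 0.50, with Il1r2, a decoy receptor for interleukin 1, called higher (2.36, SE 0.48, adjusted p = 0.00749), and 1 of 5 eosinophil genes was called higher, Ear6 (0.81, adjusted p = 0.0403). The eosinophil list had 3 values higher and 2 lower at 162 µg (median 0.09), with 1 lower at an unadjusted p below 0.05, and 4 of 5 were lower than at 18 µg (median -0.41). The dose group comparisons and the Rfxank slope gave 42 calls of named genes other than the 8. Called slopes of other listed genes, among them H2-Ob, Lck and 5 of 13 B cell genes, are not in this count. Of the 42, 4 were kept with median centring and 0 without normalization. Those kept with median centring include Cr2 at 162 µg and Il1r2 at 162 µg and between the doses. Of the same 42, 28 were kept in all 22 fits that left out 1 mouse. Those lost in 1 or more of these fits included the calls at 18 µg of Irf4, Lgmn, Pdcd1lg2, Tnfsf9 and Chil3, those at 162 µg of H2-Ob, Fcrla, Napsa and Ear6, and those between 162 and 18 µg of Irf8, Itgax and Adgre1, and the Rfxank slope.

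**Figure D5:**
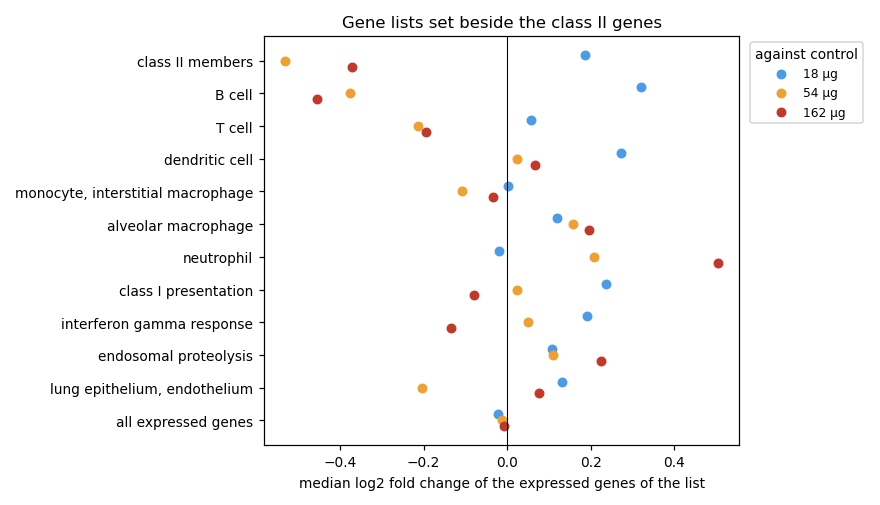
Median log2 fold change against control (horizontal axis) of the expressed genes of each list (vertical axis), coloured by dose. At 162 µg the class II and B cell lists lie at -0.37 and -0.46, the dendritic cell list at 0.07 and all expressed genes at -0.01. The list labelled endosomal proteolysis also holds genes other than proteases.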

How the data were processed

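RNA of 22 right lungs was hybridised with Cy5 against Cy3-labelled reference RNA on Agilent arrays. The authors deposited scanner intensity values (per the file headers, from Feature Extraction 10.7.3.1) that were not corrected for background or normalized, and a table of normalized log2 ratios whose normalization is not given in the sources used here. The intensities were used, and the log2 table served as an alternative, since its columns correlated with the values used here at r = 0.834 to 0.998.

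Median signals without background subtraction gave log2(Cy5/Cy3). Outlier spots were left out (0.342% to 4.42% per array), loess with span 0.3 was applied within arrays and the median was taken over replicate spots of 55681 probes. Probes were named through RefSeq accessions matched to the RefSeq gene table, which gave a gene to 26413 probes and none to 29268. A gene is its probe of highest mean intensity. R 4.3.3 and limma 3.58.1 were used, with dose and slide over 22 arrays and 12 residual degrees of freedom. The expression threshold was set from 308 negative control spots as their mean with 5% trimmed, plus 3 SD trimmed likewise. The number of arrays limits the precision, and the fit was tested on simulated data. Array annotation and the RefSeq table differ in genome build, and coordinates printed are those of the promoter table only.

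The 8 genes and all lists were chosen with earlier results of these data known. Named genes are the 8, the called genes of each pathway or cell type list, and the 6 genes most and 3 least like the 8. H2-Eb2, H2-DMb2 and Nfya are named as well, without a call. The 3 brightest genes of each cell type list were also examined. The values of 1 listed gene are not reported here, although it is in the counts of its list. The alternatives were other slide terms, filters and thresholds, leaving out each mouse, the deposited log2 ratios, Cy5 alone scaled to its 75th percentile, normexp (offset 50), quantile normalization between arrays, median centring and no normalization. Mice are separate animals, and replicate numbers follow the labels.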

Additional observations from a re-analysis of the deposited data

Results flagged for a closer look

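In 4 of 40 sets of mice (the 8 genes, the other H2-Ab1 probe and Irf8 in 4 groups) 1 mouse stood apart from the rest of its group by Dixon's test, where chance alone gives about 1 in 20. Cd74 was 4.53 in 162 µg replicate 6, with the next mouse at 3.36. H2-Ab1 was 3.14 in 54 µg replicate 1, with the next at 4.19. H2-DMb1 was 2.44 in 54 µg replicate 3, with the next at 3.11. H2-Oa was 2.43 in control replicate 1, with the next at 1.75. Without 162 µg replicate 6, the fold change of Cd74 between 162 and 18 µg was -0.92.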

How the results depend on the processing

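The numbers of class II genes called against control at 18 and 54 µg stayed at 0 under every alternative. At 162 µg against control the number was 2 with the Cy5 channel alone (H2-Ab1 and H2-Eb1) and 0 otherwise. Between 162 and 18 µg it was 0 with median centring and without normalization, 4 with the Cy5 channel alone, and 1 with the deposited log2 table, with no slide term and with slide as a random block. Leaving out 1 mouse gave 0 to 3. Over the dose ranks it was 2 with the Cy5 channel alone, 1 with no slide term, 1 with slide as a random block, 1 with the replicate number as a replicate block, and 0 to 1 with 1 mouse left out. Over all expressed genes, calls between 162 and 18 µg were 271 lower and 547 higher, 9 and 154 with median centring, and 0 and 26 without normalization. At 18 µg they were 236 lower and 104 higher, 107 and 0 with median centring, and 2 and 0 without normalization. At 162 µg against control they were 579 lower and 545 higher, 248 and 76 with median centring, and 3 and 2 without normalization. The cause was not tested.

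Of 552 gene values under other settings, 504 kept their direction and side of the threshold and 30 turned sign, none of them called. Settings that changed only the expression filter or the fold limit reused the main fit, so no value could turn sign under them. The same holds for quantile normalization between arrays. The mean over all probes could alter the log2 value of H2-Ab1 alone among the class II genes. At 18 µg median centring gave -0.24 for H2-Ab1, -0.18 for H2-Eb1, -0.061 for Cd74, -0.16 for H2-DMa and -0.20 for H2-DMb1. No normalization gave -0.45, -0.34, -0.22, -0.32 and -0.36 for the same genes and -0.014 for Ciita. H2-Aa at 18 µg was 0.048 with normexp, 0.25 with Cy5 alone, 0.18 in the deposited table and 0.15 with only the groups compared, and -0.29 to 0.17 with 1 mouse left out. H2-Eb1 at 18 µg was -0.084 with Cy5 alone, and H2-Ab1 ran from -0.11 to 0.37 with 1 mouse left out. H2-DMb1 at 54 µg was 0.051 with only the groups compared. Ciita at 162 µg was -0.0079 with normexp, -0.084 with Cy5 alone, -0.0175 in the deposited table, -0.067 with no slide term, -0.038 with slide as a random block, -0.049 with the replicate block, and -0.058 to 0.18 with 1 mouse left out. Ciita was -0.22 at 54 µg with Cy5 alone and -0.026 at 18 µg in the deposited table. Between 162 and 18 µg it was 0.085 without normalization and 0.0088 in the deposited table. Its slope was 0.0198 with median centring, 0.046 without normalization, 0.0011 in the deposited table, and -0.0248 to 0.035 with 1 mouse left out. Lgmn at 18 µg was -0.022 without normalization.

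Same-numbered mice of different groups correlated at -0.17 to 0.62 (median 0.17) in their deviations from the group means. Some of these mice shared a slide, and differently numbered mice were not compared. Whether the numbers pair the mice was therefore not tested. With the replicate block in place of slide, Cd74 was -0.69 (limma adjusted p = 0.0192) and H2-DMa -0.67 (limma adjusted p = 0.00626) between 162 and 18 µg. In the same 42 calls of other named genes, 133 of 587 results under other settings lost the call. With 1 mouse left out, 137 of 924 did. The 587 results include settings that altered little or nothing. All 42 calls were kept with quantile normalization, the other expression filters, no fold limit and the mean over probes. Between-array quantile normalization altered no log ratio, by its construction. Dim arrays, with as few as 52.1% of probes above background, and the faint Ciita probe limit what could be detected.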
